A study of Mus musculus with 30 samples.

Results

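The response examined here was the change in the transcriptome of Nr6a1-/- cells between day (d) 2 and d2.5 of differentiation, an interval over which the Wnt pathway agonist CHIR99021 (CHIR) was present for 12 h. Its members were the 6 Nr6a1-/- libraries labelled d2 (3 replicates) and d2.5 (3 replicates), out of 30 libraries in the series. Cells of the mouse embryonic stem cell (ESC) line Bruce4 were grown towards neuromesodermal progenitors (NMPs), the axial progenitors of the posterior embryo that can give rise to both spinal cord and paraxial mesoderm. The d2 group had received FGF2 for 48 h without CHIR, and the d2.5 group was treated in the same way and then given FGF2 together with CHIR for 12 h. Wildtype (WT) Bruce4 cells at the same stages, 3 replicates each, were used for comparison. All 12 libraries thus came from FGF2-treated cells, and none came from d2.5 cells kept without CHIR, so an effect of CHIR and an effect of 12 h of further culture cannot be told apart. The Nr6a1-/- cells were 1 clone, made with CRISPR/Cas9 and carrying independent deletions in an internal exon on each allele, so that genotype and clone cannot be told apart either.

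CHIR inhibits the kinase GSK3, which otherwise marks the transcriptional co-activator beta-catenin for destruction. Stabilised beta-catenin joins TCF/LEF factors on DNA and activates genes that include the pathway's own inhibitors, such as Axin2, the Dkk genes, Nkd1, Notum and Znrf3. In the posterior epiblast of the embryo, the same pathway, with FGF, switches on T (Brachyury), the Cdx genes and the Hox genes at the 3′ end of each cluster while epiblast genes are shut down. Nr6a1 encodes an orphan nuclear receptor of the early embryo.

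Library totals were 2170455 to 2735142 counts at d2 and 2612446 to 2801158 counts at d2.5, and 18759 to 19711 genes had at least 1 count per library. With no count in a library, the level could still be as high as 1.04 to 1.40 CPM (counts scaled to a fixed library total), a limit that, like the intervals given for single genes, covers counting error only. Nothing in the labels says whether replicates were separate cultures, so that p-values measure the spread between these libraries. Nr6a1 did not check the genotype, because the reads came from transcript 3′ ends and the deletions lie in an internal exon. Its levels were 87.4, 95.2 and 99.8 CPM at d2 and 109, 114 and 110 CPM at d2.5 (log2 change 0.24, SE 0.118, FDR = 0.144), and without strand these reads cannot be told apart from those of the antisense gene Nr6a1os. Transcripts of chromosome 8 took 4.26% ± 0.0548 of the counts in d2 Nr6a1-/- cells and 4.20% ± 0.0112 at d2.5, against 5.43% ± 0.0757 and 5.44% ± 0.00723 in WT (SD, n = 3). This gap between the lines was present at both stages, and 22.8% of 653 chromosome 8 genes were called between the stages.

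Of 12149 genes tested in Nr6a1-/- cells, 2926 (24.1%) were called at a false discovery rate (FDR) below 0.05 in the quasi-likelihood test of edgeR, and every FDR printed here is this test's Benjamini-Hochberg adjusted p. Of these, 1568 (12.9% of the genes tested) were higher and 1358 (11.2%) lower at d2.5. The rises were the larger changes. Among the called genes, 241 rose and 76 fell by more than 4-fold, and 60 rose and 8 fell by more than 16-fold. The median log2 change over all genes tested was 0.01. In 40.6% of all genes tested, the 3 libraries of one stage did not overlap with the 3 of the other. These libraries hold bulk RNA, so a change in the number of cells expressing a gene and a change in its RNA per cell cannot be told apart.

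Genes known as Wnt targets and feedback inhibitors rose together. Of 23 listed genes 20 were tested, of which 13 were higher, 2 were lower and 5 were not called. Their median log2 change was 3.22, beside 0.01 for all genes tested. The shares to set beside the counts of this and every later list are 12.9% higher and 11.2% lower, those over all genes tested. Several inhibitors among them started near the limit of detection. Axin2, a scaffold of the complex that destroys beta-catenin, stood at 3.27, 3.35 and 3.39 CPM at d2 and 199, 208 and 198 CPM at d2.5 (log2 change 5.89, SE 0.172, FDR = 2.27e-25). Dkk1, a secreted inhibitor of the Lrp5/6 co-receptors, was at 0.467, 0 and 0.377 CPM at d2 and 17.9, 20.2 and 23.1 CPM at d2.5. With only 2 reads counted at d2, its pooled ratio of 76.5 had a 95% counting interval of 20.9 to 637. The related inhibitor Dkk4 rose from 0, 1.12 and 1.13 to 48.4, 47.3 and 40.1 CPM (5.73, FDR = 1.57e-14). For these genes every d2.5 library lay far above every d2 library.

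Notum, an enzyme that removes the lipid of Wnt proteins, was at 0.467, 0.372 and 0.377 CPM and then at 16.8, 16.7 and 19.2 CPM, a pooled ratio of 43.8 (95% counting interval 14.7 to 215) on 3 counts at d2. Nkd1, an inhibitor that binds Dishevelled, rose from 3.59 ± 1.2 to 71.3 ± 8.2 CPM (SD, n = 3; log2 change 4.29, FDR = 2.44e-18). Znrf3, a ubiquitin ligase that clears Frizzled receptors, rose from 34.1, 30.1 and 37.3 CPM to 188, 174 and 192 CPM (2.45, FDR = 1.11e-15). Its partner Rnf43 stayed under 4 CPM and was not called (0.71, FDR = 0.291).

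The transcription factors of the list rose as well. Sp5, a Wnt-induced zinc-finger factor, rose from 4.21, 2.60 and 2.26 CPM to 182, 177 and 176 CPM (5.89, SE 0.156, FDR = 2.62e-26), and its relative Sp8 rose from 6.07, 3.35 and 4.14 to 122, 116 and 116 CPM (4.72, FDR = 4.76e-15). T, a T-box factor of the primitive streak and of NMPs, rose from 2.34, 2.97 and 3.01 to 230, 237 and 208 CPM (6.30, SE 0.176, FDR = 6.11e-26). Cdx1 rose from 0.935, 0.372 and 3.01 to 181, 166 and 151 CPM (6.77, FDR = 2.03e-23). The nuclear partners of beta-catenin moved less: Lef1 went from 129 ± 17 to 272 ± 20 CPM (1.09) and Tcf7 from 29.7 ± 4.8 to 64.6 ± 2.0 CPM (1.13).

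Several genes often used as Wnt targets in other tissues were not called. Ccnd1 (cyclin D1) was at 279 ± 9.9 CPM at d2 and 253 ± 14 CPM at d2.5 (-0.14, FDR = 0.231), and Lgr5 at 40.9 ± 4.2 and 52.2 ± 6.2 CPM (0.35, FDR = 0.0525). The 2 listed genes called lower were Sfrp1, a secreted Wnt antagonist (-0.64, FDR = 0.00138), and Myc (-0.64, FDR = 0.0334). The Myc call was lost without d2 replicate 1 or 3 or d2.5 replicate 1 or 2, with FDR values of 0.0527 to 0.108, leaving 1 lower gene in the list.

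The sequences just upstream of the strongest responders are given to show the letters that a TCF/LEF factor could meet there. TCF/LEF factors bind a short core, of which 4 forms were searched on both strands in the 250 bases before each RefSeq transcription start (GRCm38.p6). The first form was CTTTGAA, the second form was CTTTGAT, the third form was CTTTGTA and the last form was CTTTGTT. Capitals mark a match, and no match overlapped another. The window of T lies at chr17:8434173-8434422 (plus strand), that of Sp5 at chr2:70474673-70474922 (plus strand) and that of Axin2 at chr11:108920099-108920348 (plus strand).
T: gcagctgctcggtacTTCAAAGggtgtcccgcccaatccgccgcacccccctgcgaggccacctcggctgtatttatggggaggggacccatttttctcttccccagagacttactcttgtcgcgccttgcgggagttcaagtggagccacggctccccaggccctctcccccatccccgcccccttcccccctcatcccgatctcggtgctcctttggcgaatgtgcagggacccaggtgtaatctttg
Sp5: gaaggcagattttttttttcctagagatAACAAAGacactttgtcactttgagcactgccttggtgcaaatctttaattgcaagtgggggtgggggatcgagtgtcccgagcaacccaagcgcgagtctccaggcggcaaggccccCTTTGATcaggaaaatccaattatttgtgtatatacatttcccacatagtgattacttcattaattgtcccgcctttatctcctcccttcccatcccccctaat
Axin2: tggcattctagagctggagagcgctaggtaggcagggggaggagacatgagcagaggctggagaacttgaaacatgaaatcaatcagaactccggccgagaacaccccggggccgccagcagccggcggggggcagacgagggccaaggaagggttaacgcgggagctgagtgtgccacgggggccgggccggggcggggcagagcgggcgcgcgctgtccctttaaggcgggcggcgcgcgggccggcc

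The T window held 1 match, beginning 235 bases before the start. The Sp5 window held 2, at 222 and 104 bases, and the Axin2 window none. Dkk1 had 2 matches, CTTTGAA and CTTTGTT at 117 and 98 bases before its RefSeq start, but 169 bases of this window lie inside the GENCODE gene model, so its sequence is not printed. Of the 13 Wnt targets called higher, 9 had an entry in the RefSeq table and 6 had a match in at least 1 entry. Counted per entry, 6 of 16 held a match, against 14.8% of all 32851 promoters. The share was 11.6% for promoters of genes called higher, 15.8% for those that rose more than 4-fold, 11.1% for genes called lower and 9.77% for tested genes not called. A match describes these letters alone and is not evidence of binding, and sites outside the window were not examined.

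Wnt ligand genes rose alongside the inhibitors. Of 23 ligand and R-spondin genes 11 were tested, and 6 were higher and none was lower, with a median log2 change of 2.44. Wnt3, the ligand that initiates the primitive streak in the embryo, rose from 0.935, 1.49 and 1.13 CPM to 18.7, 13.9 and 19.9 CPM (3.80, SE 0.366, FDR = 2.66e-10). Wnt8a rose from 0.467, 0.743 and 0.753 to 16.8, 16 and 14.2 CPM (4.45, FDR = 2.87e-09). The ligands of the non-canonical branch, Wnt5a and Wnt5b, rose from 1.06 ± 0.11 CPM each to 21.9 ± 1.8 and 17.3 ± 1.6 CPM (4.29 and 3.95), and Wnt6 and Rspo3 were the other called genes. Wnt3a, a ligand of the established tailbud, remained at 0.762, 1.39 and 0.355 CPM at d2.5 (FDR = 0.163) and reached a mean of 44.2 CPM at d3.

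Of 14 tested receptor genes 2 were higher, 2 were lower and 10 were not called, a share near the 24.1% of all genes, with a median log2 change of 0.01. Fzd10 stood apart, rising from 7.48, 8.55 and 8.28 CPM to 233, 240 and 259 CPM (4.90, SE 0.269, FDR = 5.38e-17). The co-receptor Ror2, a receptor for Wnt5a, rose from 9.78 ± 0.66 to 27.8 ± 6.5 CPM (1.51, FDR = 1.55e-06). Fzd7, in contrast, fell from 41.6, 45.0 and 45.2 CPM to 6.47, 10.8 and 11.4 CPM (-2.19, FDR = 1.24e-09), and Fzd2 fell by 1.02 on the log2 scale. Fzd7 was thus higher at d2 and Fzd10 at d2.5, with no overlap between the stages.

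Of 25 tested genes of the intracellular pathway 6 were higher and 3 were lower (median 0.28). Ctnnb1 (beta-catenin), Axin1 and Apc were not called (FDR = 0.536, 0.278 and 0.103). The genes that fell encode repressors: Tcf7l1, a TCF that represses targets in the absence of Wnt, fell from 76.2, 78.8 and 81.3 CPM to 24.7, 24.7 and 28.1 CPM (-1.61, FDR = 1.48e-10), the Groucho co-repressor gene Tle4 fell from 128 ± 2.0 to 48.3 ± 6.8 CPM (-1.40), and the co-repressor gene Ctbp2 fell by 0.64 on the log2 scale. Another Groucho gene, Tle3, was higher (0.94). Wls and Porcn, which are needed to export and to lipidate Wnt proteins, rose by 1.28 and 2.67 on the log2 scale. Gsk3b, encoding 1 of the kinases that CHIR inhibits, was higher by 0.46 (FDR = 0.00177).

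The posterior progenitor programme appeared within the same interval. Of 15 NMP genes, all tested, 12 were higher and 1 was lower, with a median log2 change of 4.45. Cdx2 rose from 1.40, 0.743 and 1.13 CPM to 94.0, 75.4 and 124 CPM (6.45, SE 0.242, FDR = 4.77e-22), while Cdx4 reached 17.5 ± 3.9 CPM (3.97). Nkx1-2, a homeobox gene of the caudal epiblast, rose from 4.21, 5.20 and 1.51 to 152, 180 and 161 CPM (5.49, FDR = 3.80e-20). Fgf8, the ligand of the posterior growth zone, rose from 0.467, 1.86 and 1.88 to 35, 27.8 and 23.1 CPM (4.23, FDR = 2.08e-13). Evx1 went from a single count at d2 to 10.7, 17.0 and 9.23 CPM, a pooled ratio of 92.7 with a wide counting interval (16.3 to 3696). No source used here says whether strand was used in counting, so reads of Evx1 and of its antisense neighbour Evx1os cannot be told apart. Sox2, the neural and pluripotency factor that NMPs express together with T, was the gene that fell, from 149, 144 and 140 to 71.2, 95.9 and 81.0 CPM (-0.80, FDR = 8.70e-06). The call of Fgf17 was lost without d2 replicate 3 or d2.5 replicate 2 (FDR = 0.195 and 0.208).

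Primitive streak genes followed in part, with 7 higher and none lower of 16 tested (median 1.37). Mixl1, a homeobox gene of nascent mesendoderm, rose from 1.40, 2.60 and 2.64 to 115, 115 and 120 CPM (5.66, SE 0.327, FDR = 2.74e-16). Eomes rose from 0.935, 2.97 and 0.753 to 16.8, 21.5 and 25.9 CPM (3.7, FDR = 2.31e-09), and Fst, an inhibitor of activins, from 10.7, 6.69 and 7.91 to 304, 307 and 315 CPM (5.21, FDR = 2.62e-26). Nodal and its inhibitor Lefty1 rose by 1.59 and 1.38 on the log2 scale. Genes of definitive endoderm and committed mesoderm did not pass: Foxa2, Sox17, Mesp1 and Gata6 each averaged under 2 CPM at d2.5.

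Presomitic mesoderm genes gave a mixed picture (20 tested, 6 higher, 2 lower, median 0.65). With genes lacking any count at 1 stage set to a bound or to 0, the median was 0.49. Tbx6, the determinant of presomitic mesoderm, was at 0.467, 1.49 and 2.26 CPM at d2 and 1.52, 1.04 and 0.710 CPM at d2.5, and its groups overlapped (FDR = 0.667). It averaged 25.3 CPM at d3. Dll1, Hes7 and Mesp2 were not called either. Tcf15 fell from 22, 25.3 and 23.0 CPM to 4.57, 4.17 and 1.42 CPM (-2.78, FDR = 2.24e-08). Among the higher genes Dkk1 and Rspo3 are shared with the Wnt lists. Aldh1a2, the main retinoic acid synthesising enzyme, was called at 2.57 ± 1.4 CPM, a call that was lost without d2 replicate 1 or 3 or d2.5 replicate 1 (FDR = 0.0583 to 0.234). Of 18 genes of lateral mesoderm and blood vessels 5 were tested. Lmo2 rose (2.73), Etv2 fell from 42.0 ± 2.0 to 8.51 ± 0.78 CPM (-2.29, FDR = 1.20e-11), and Msx1 was called higher at FDR = 0.0487, but not without d2 replicate 1 or 3 or d2.5 replicate 1 or 2 (FDR = 0.0811 to 0.214).

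Hox genes at the 3′ ends of the Hoxa and Hoxb clusters were among the genes that rose. Of 13 tested genes of paralogue groups 1 to 5, 8 were higher and none was lower (4 higher in a fit of the compared libraries only). Hoxb1 rose from 2.34, 1.49 and 2.26 CPM to 100, 103 and 113 CPM (5.68, FDR = 1.51e-22). Hoxa2 reached 13.3, 10.1 and 11.4 CPM from 3 counts at d2 (pooled ratio 28.8, interval 9.56 to 142), and Hoxb2 5.75 ± 2.2 CPM. Hoxa5 had no count at d2 and 26 at d2.5, at least 7.80-fold higher against a floor of 3 counts over the group. No library of these genes at d2.5 overlapped with d2. The Hoxa3 and Hoxb4 calls rested on 7 and 24 counts at d2.5. Hoxa3 was lost without any of the d2 libraries or d2.5 replicate 1 (FDR = 0.0697 to 0.123) and Hoxb4 without d2.5 replicate 1 (FDR = 0.0546).

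Hotairm1, a noncoding RNA gene of the Hoxa cluster, rose from 0.467, 0.372 and 0.377 to 33.5, 29.9 and 31.2 CPM (6.12, SE 0.340, FDR = 7.65e-17). It lies at chr6:52156902-52162119 on the plus strand in GENCODE M21 (GRCm38) and overlaps a gene of the other strand, so that the reads of both cannot be told apart without strand.

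Groups 6 to 9, the trunk Hox genes, stayed near the detection limit. They summed to 1.86 to 3.27 CPM at d2 and 6.60 to 9.94 CPM at d2.5, and only Hoxb6 of 11 tested was called, at FDR = 0.0384, a call lost without any of the d2 libraries or d2.5 replicate 1 or 3 (FDR = 0.0514 to 0.181). Among 10 tested genes of groups 10 to 13, Hoxb13 rose out of cluster order, from 2 counts at d2 to 57 at d2.5. Its levels were 0.935, 0 and 0 CPM and then 8.76, 5.91 and 6.04 CPM (pooled ratio 25.6, interval 6.78 to 217, FDR = 7.96e-07). Hoxc13 reached 2.28, 2.09 and 2.84 CPM (FDR = 0.00837, and 0.0633 without d2 replicate 3). The fitted median log2 changes of the anterior, trunk and posterior groups were 3.69, 1.73 and 1.63, but 7, 3 and 6 of their genes had no count at 1 stage. With those set to their bound, or to 0 where the other stage had 3 counts or fewer, the medians were 2.27, 1.28 and 0.

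**Figure D1:**
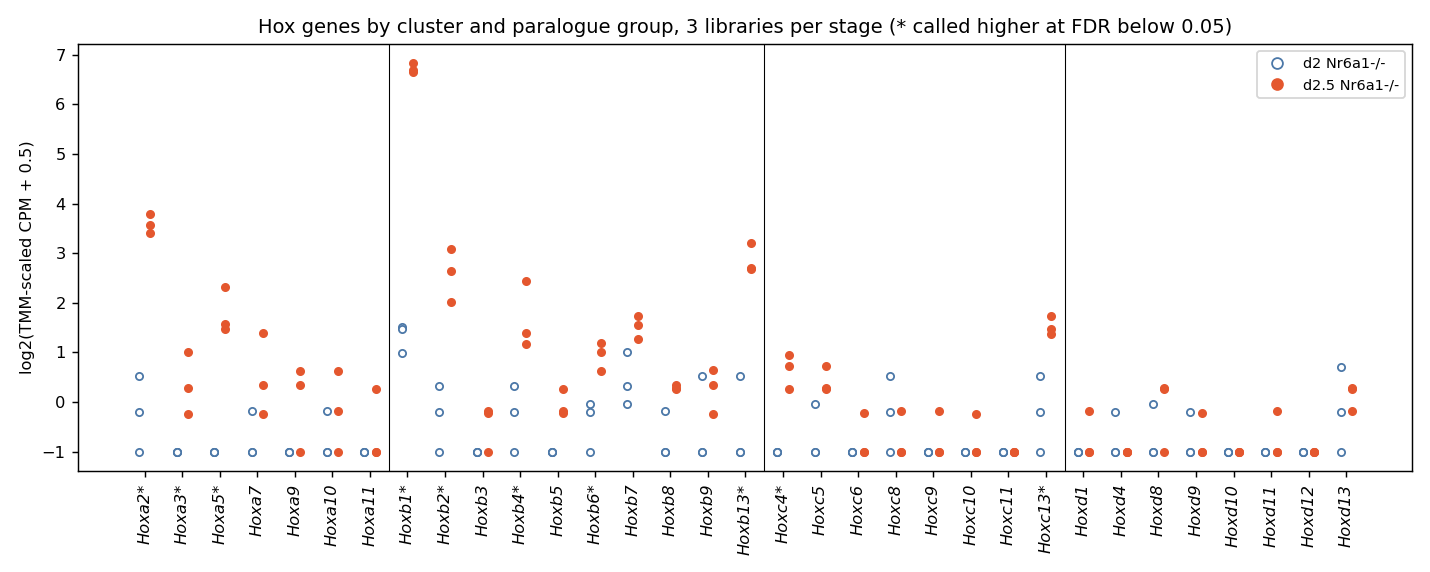
Levels of tested Hox genes in the 3 d2 (open) and 3 d2.5 (filled) Nr6a1-/- libraries, as log2 of TMM-scaled CPM plus 0.5, ordered by cluster and paralogue group, with asterisks for genes called higher at FDR below 0.05. The points at -1 are libraries with no count, and Hoxb1 has the highest mean at d2.5 of the genes plotted.

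Epiblast genes fell over the same interval. All 23 listed genes were tested, of which 15 were lower, 2 were higher and 6 were not called, with a median log2 change of -1.61. Transcription factors of the formative epiblast were among the largest falls. Foxd3 was at 15.4, 12.3 and 15.1 CPM at d2 and at 0.381, 0.348 and 0 CPM at d2.5, 2 counts in all (pooled ratio 0.0170, interval 0.00203 to 0.0629). Otx2 fell from 76.6, 81.0 and 94.9 to 1.90, 2.43 and 3.20 CPM (-5.03, SE 0.410, FDR = 9.05e-12). Pou3f1 (Oct6) fell from 412, 455 and 477 to 34.3, 41.0 and 47.6 CPM (-3.45, FDR = 2.06e-08). The groups lay apart for each of these genes.

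The epiblast ligands Fgf5 and Fgf4 fell from 50.9, 53.5 and 62.5 to 4.57, 3.13 and 2.13 CPM (-4.08, FDR = 6.82e-10) and from 45.3, 42.7 and 42.2 to 1.52, 2.09 and 2.49 CPM (-4.37, FDR = 3.49e-16). Dnmt3b and Dnmt3a, the de novo DNA methyltransferase genes, fell by 1.97 and 1.61 on the log2 scale, Dnmt3b from 2365, 2384 and 2415 to 594, 640 and 592 CPM. The core factor gene Pou5f1 (Oct4) did not follow, with 23.8, 24.9 and 22.6 CPM at d2 and 25.5, 20.9 and 28.4 CPM at d2.5 (0.07, FDR = 0.856). Sall4 was higher, by 0.98 on the log2 scale.

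Genes of naive pluripotency were called in both directions (13 tested, 4 higher, 3 lower, median 0.41). The 4 that rose are also known from other settings. Nanog rose from 13.6, 17.5 and 18.5 to 59.8, 56.0 and 78.8 CPM (1.96, FDR = 7.70e-11), Tbx3 from 3.81 ± 1.6 to 27.0 ± 2.3 CPM (2.79, FDR = 1.56e-09) and Tfcp2l1 from 5.92 ± 1.2 to 24.3 ± 3.6 CPM (2.01, FDR = 3.88e-08). Gbx2, also a gene of the posterior neural plate, is described with the differences between genotypes. Nanog and Tbx3 had fallen back to means of 13.4 and 11.5 CPM at d3. Zfp42 (Rex1), Klf4 and Esrrb were not called (FDR = 0.604, 0.457 and 0.227), and Dppa5a fell by 0.81. Fbxo15 was called lower at FDR = 0.0377, but not without d2 replicate 2 or 3 or d2.5 replicate 3 (FDR = 0.0725 to 0.232).

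Anterior neural genes, of which 7 of 20 were tested, were lower in 4 cases and higher in none (median -1.20), among them Pax6, which fell from 15.4, 10.4 and 13.6 to 1.14, 1.39 and 1.07 CPM (-3.38, FDR = 2.73e-09). Neurod1, a proneural factor, fell from 22, 21.6 and 22.2 to 6.09, 4.52 and 5.68 CPM (-2.01, FDR = 6.30e-07). Elavl3, the other neuronal gene called lower, was lost without d2 replicate 1 or d2.5 replicate 2 (FDR = 0.0519 and 0.0824). In the neuronal list as a whole, 8 genes were tested, with 1 higher, 2 lower and 5 not called (median -0.35). Nefm, a neurofilament gene, rose from 42.5, 36.4 and 29.7 to 66.3, 75.8 and 70.0 CPM (0.97, FDR = 8.71e-06).

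FGF feedback targets were lower more often than higher (20 tested, 2 higher, 6 lower, median -0.33; 3 lower after thinning of the libraries to 1 total), with FGF2 present at both stages. Spry4 fell from 24.8, 26.8 and 34.3 to 13.7, 9.04 and 14.6 CPM (-1.21, FDR = 1.23e-04), while Il17rd, another inhibitor of FGF signalling, rose from 10.4 ± 1.6 to 30.8 ± 7.7 CPM (1.58). Dusp6, an ERK phosphatase, was at 138, 133 and 175 CPM and then 168, 125 and 138 CPM (FDR = 0.896). Of 10 tested FGF ligand and receptor genes, 3 were higher and 4 lower, the fall of Fgf4 and Fgf5 and the rise of Fgf8 being the largest of those with at least 10 CPM. Fgfr1 rose by 0.86 (FDR = 8.00e-06). In these lists the calls of Spred3 (without d2 replicate 1 or 3 or d2.5 replicate 1 or 2, FDR = 0.0637 to 0.115) and Fgf9 (without any of the 6 libraries, 0.0534 to 0.144) depended on single libraries.

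Other signalling lists held calls in both directions, beside 12.9% higher and 11.2% lower over all genes tested. In the BMP, Nodal and TGF-beta list 6 of 19 tested genes were higher and 2 lower (median 0.49). Bmp7 rose from 3.28 ± 1.4 to 19.0 ± 6.9 CPM (2.5, FDR = 5.90e-08), and Id2, a target of BMP signalling, fell from 26.6 ± 0.42 to 11.8 ± 3.0 CPM (-1.18, FDR = 6.37e-06). The Smad6 call was lost without d2 replicate 2 or 3 or d2.5 replicate 2 (FDR = 0.0557 to 0.0819). In the Notch list 4 of 18 were higher and 2 lower. The ligand gene Jag1 rose from 22, 18.2 and 8.28 to 70.4, 74.7 and 79.5 CPM (2.24, FDR = 6.11e-07), and Hes1 from 67.8 ± 10 to 147 ± 17 CPM (1.12). Hes3 had no count at d2 and 5.33, 9.04 and 7.10 CPM at d2.5, at least 18-fold higher against the floor of 3 counts. Notch2 was higher by 1.10, but missed the threshold without d2 replicate 2 (FDR = 0.0515). In the retinoid list 3 of 13 were higher and 2 lower. Rarg, a retinoic acid receptor gene, fell from 63.1 ± 4.8 to 29.8 ± 0.73 CPM (-1.08), and Stra6, a retinol transporter gene, rose by 2.68 on the log2 scale.

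Of 23 tested genes of the cadherins and of epithelial or mesenchymal character, 4 were higher, 6 were lower and 13 were not called (median -0.21). Cdh1 (E-cadherin) fell from 234, 216 and 254 to 138, 159 and 134 CPM (-0.71, FDR = 5.78e-04), and Cdh2 (N-cadherin) rose from 7.48, 13.0 and 12.4 to 22.8, 25.4 and 27.3 CPM (1.17, FDR = 1.53e-05). The repressor gene Snai1 reached 4.57, 10.1 and 5.33 CPM from under 1 CPM (3.23, FDR = 1.67e-05), Zeb2 rose by 1.57 and Vim by 0.71. The claudin genes Cldn6 and Cldn7 fell by 0.89 and 1.02. The calls of Esrp1 (FDR = 0.0675 to 0.201) and Ovol2 (0.0642 to 0.109) were lost without 1 library, any but d2 replicate 1 for Esrp1 and d2 or d2.5 replicate 3 for Ovol2.

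Of 29 tested cell cycle genes 9 were lower, 2 were higher and 18 were not called (median -0.20). Top2a fell from 828, 862 and 849 to 525, 496 and 533 CPM (-0.71, FDR = 7.31e-10) and Cdk1 by 0.69. Ccnd2 (cyclin D2) went the other way, from 61.7, 53.5 and 68.5 to 660, 601 and 612 CPM (3.35, SE 0.145, FDR = 4.21e-20), and so did the cell cycle inhibitor Cdkn1a (p21), a p53 target, from 96.3, 85.1 and 88.1 to 680, 599 and 627 CPM (2.82, SE 0.0991, FDR = 6.97e-23). The remaining p53 targets did not share a rise of that size (20 tested, 5 higher, 2 lower, median 0.21). Over all genes tested, 12.9% were higher and 11.2% lower. Small calls lost without 1 library were those of Mcm7 without d2 or d2.5 replicate 3 (FDR = 0.0708 and 0.124) and Ccna2 without d2.5 replicate 3 (FDR = 0.0506). Among the p53 targets, Sesn2 was lost without d2 replicate 2 or 3 or d2.5 replicate 1 or 3 (FDR = 0.0746 to 0.200).

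Glycolysis and hypoxia genes were lower in 11 and higher in 3 of 23 cases (median -0.39). The glucose transporter gene Slc2a1 fell from 428, 470 and 431 to 198, 180 and 187 CPM (-1.23, FDR = 1.21e-12), the lactate exporter gene Slc16a3 from 100 ± 6.3 to 37.0 ± 3.7 CPM (-1.44) and Ldha by 0.67, whereas Slc2a3 rose by 0.73 and Ddit4 by 1.34. Of these calls only that of Bnip3 was lost without 1 library (d2 replicate 1 or 2, d2.5 replicate 2 or 3, FDR = 0.0600 to 0.0921). Of 23 tested sterol synthesis genes 6 were higher, 2 were lower and 15 were not called (median 0.20), with Sc5d highest in change, from 111 ± 4.3 to 228 ± 2.2 CPM (1.04). Of the 8 sterol calls, 4 were lost without 1 library. Among them were Insig1 (d2 replicate 1 or 2 or d2.5 replicate 1, FDR = 0.0586 to 0.0726), Mvd (d2 replicate 2 or 3 or d2.5 replicate 1 or 3, FDR = 0.0585 to 0.0999) and Tm7sf2 (d2 replicate 2 or 3 or d2.5 replicate 2, FDR = 0.0620 to 0.116). The count of higher sterol genes was then 3 without d2 replicate 2 or d2.5 replicate 1.

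**Figure D2:**
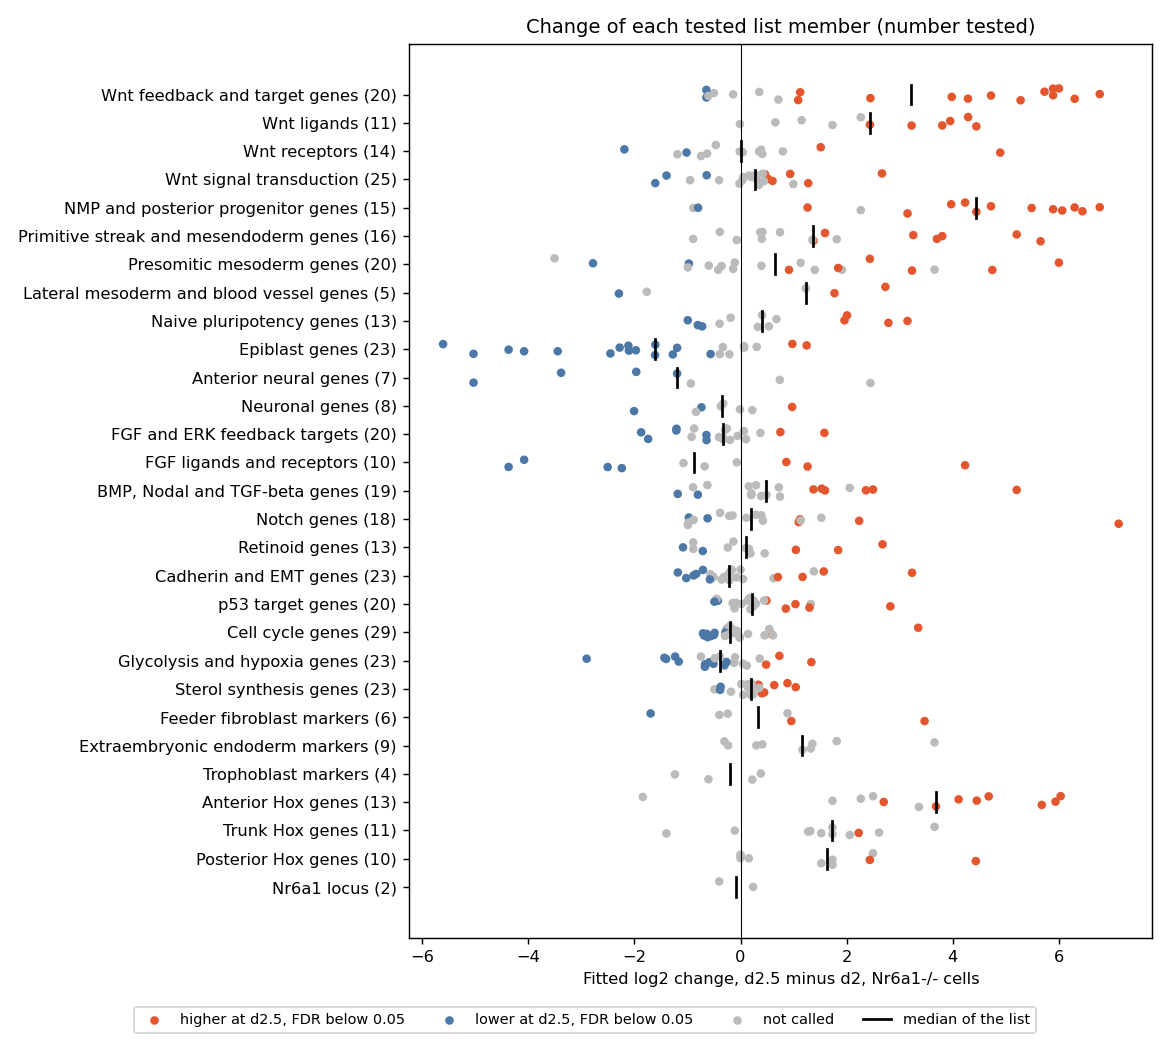
Fitted log2 change from d2 to d2.5 in Nr6a1-/- cells of each tested member of the 29 gene lists, with the number tested in parentheses, coloured by call, and with a bar at the list's median. Bars use fitted values also for genes with no count at 1 stage. With those set to a bound or to 0, the anterior Hox median is 2.27 and the posterior Hox median 0. The medians of the Wnt feedback (3.22) and NMP (4.45) lists lie to the right and that of the epiblast list (-1.61) to the left, while the transduction, cell cycle and sterol lists sit close to 0.

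Markers of fibroblasts, extraembryonic endoderm and trophoblast, cells that the cultures could also hold, were low in sum at both stages. Cells had been grown on fibroblast feeders before differentiation, and 10 fibroblast markers summed to 44.4 to 46.5 CPM at d2 and 44.0 to 50.7 CPM at d2.5, with 6 tested, 2 higher and 1 lower. The lower gene, Dcn, went from 7.96 ± 2.1 to 2.41 ± 1.1 CPM. Of the higher calls, Fbln2, was lost without d2 replicate 3 or d2.5 replicate 2 (FDR = 0.0703 and 0.0705). Markers of extraembryonic endoderm summed to 14.5 to 25.7 CPM and then 18.8 to 25.1 CPM, and those of trophoblast to 12.8 to 17.3 CPM and then 10.3 to 17.0 CPM, with 0 of 9 and 0 of 4 tested genes called. The neuronal list, in contrast, summed to 295 to 338 CPM at d2 and 305 to 325 CPM at d2.5. That of lateral mesoderm and blood vessels summed to 54.2 to 62.1 CPM and then 41.1 to 49.4 CPM. The part of any of these cell types in the other results was not tested.

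Outside the lists, the strongest rise of all genes with at least 10 CPM and separate groups was that of Foxb1, a forkhead gene, from 0.467, 0 and 1.13 CPM to 72.7, 74.7 and 68.5 CPM (6.94, SE 0.337, FDR = 1.33e-18). The 12 largest rises included Foxb1, Cdx1, Cdx2, T, Sidt1, Hotairm1, Evx1, Dkk1, Sp5, Axin2 and Dkk4. Sidt1, not discussed so far, was found with 1 count at d2 and 14.8, 12.2 and 15.6 CPM at d2.5 (pooled ratio 106, interval 18.7 to 4229). The 12 largest falls were those of Foxd3, Otx2, Fgf4, Fgf5, Pou3f1, Pax6, Ptchd1, Btbd17, Myrf, Enpp2, Kcnh8 and Slc35d3. Enpp2 (autotaxin), which makes lysophosphatidic acid, fell from 74.8, 79.9 and 76.4 to 9.90, 13.2 and 7.46 CPM (-2.91, FDR = 2.98e-09). The last 6 fell by 2.84 to 3.24 on the log2 scale.

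By amount of RNA rather than by fold, the largest gain was that of Prtg (protogenin), a receptor of the caudal embryo, from 271, 249 and 250 CPM to 1175, 1303 and 1238 CPM (2.27, SE 0.106, FDR = 4.11e-19). Ccnd2 gained 563 CPM. Ptges3, Tubb5 and Rps25 gained 816, 734 and 568 CPM at log2 changes of 0.69, 0.34 and 0.52, but these calls were lost without single libraries: Ptges3 without d2 replicate 1 or 2 or d2.5 replicate 1 (FDR = 0.0722 to 0.102), Tubb5 without any but d2 replicate 3 (0.0559 to 0.140) and Rps25 without any of the 6 (0.0647 to 0.159). The largest losses after Dnmt3b were those of Malat1, a nuclear noncoding RNA, from 3485, 3330 and 3260 to 1850, 1901 and 2151 CPM (-0.77, FDR = 1.05e-08), Ncl (nucleolin, -0.45, FDR = 3.16e-04) and the chaperone genes Hsp90aa1 (-0.68, FDR = 9.55e-08) and Hsp90ab1 (-0.22, FDR = 0.0341). The Hsp90ab1 call was lost without d2 or d2.5 replicate 1 or 2 (FDR = 0.0698 to 0.101).

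Levels at d3, after 24 h of CHIR, differ in direction from gene to gene. Of 121 genes that rose more than 4-fold and averaged at least 10 CPM in 1 of the d2 or d2.5 groups, 43 had a higher mean at d3 than at d2.5 in Nr6a1-/- cells, 15 of them by more than 2 times, and 29 had dropped below 50% of their d2.5 mean. The d2.5 libraries chose these genes, so the counts are a description. T rose on, from 225 ± 15 to 500 ± 35 CPM, and Cdx1 from 166 ± 15 to 378 ± 34 CPM. Dkk4 and Eomes, in contrast, went from 45.2 ± 4.5 to 9.99 ± 1.8 CPM and from 21.4 ± 4.6 CPM to a mean of 0.823 CPM, and Sidt1 to 1.73 ± 0.34 CPM. Axin2 was at 164 ± 19 CPM. Of 39 genes that fell by more than 4-fold, 28 were lower still at d3 and 2 had risen again by more than 2 times in mean, Fgf4 (14.7 ± 2.9 CPM) and Dlc1, the latter named after its values were seen.

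The same interval in WT cells, which share no library with the Nr6a1-/- comparison, gave 3086 calls (25.4%). Both genotypes called 1662 genes in the same direction, 56.8% of the Nr6a1-/- calls and 53.9% of the WT calls, and 7 genes in opposite directions. Of the Nr6a1-/- calls 92.9% had the same sign of fitted change in WT, against 72.3% of all genes tested. Over the 8842 genes that averaged 10 CPM or more in 1 of the 4 groups, the fitted log2 changes of the genotypes correlated with r = 0.81 (Spearman's rho 0.67), a description across genes, which are not independent replicates. In WT the Wnt feedback list had a median of 2.42 with 14 higher and 2 lower, the NMP list 4.17 and the epiblast list -1.22. The change was not larger in Nr6a1-/- cells for every list. In WT the median was 2.48 for Wnt ligands, beside 2.44 in Nr6a1-/- cells. For p53 targets it was 0.43 with 11 higher, beside 0.21 with 5 higher. For trunk Hox genes, near the detection limit, 6 were called higher in WT, beside 1, with medians of 1.88 and 1.73. In the Wnt ligand, p53 and trunk Hox lists, no gene's change was called different between genotypes.

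The change itself differed between genotypes in 74 of 12149 genes (0.609%), of which 53 (0.436%) changed more positively and 21 (0.173%) more negatively in Nr6a1-/- cells. At an unadjusted p below 0.05 there were 1486 genes. Library totals were lower in the d2.5 WT group (1935182 to 2081982) than in the d2.5 Nr6a1-/- group, and with all libraries thinned to 1 total 55 genes were called. The number also turned on single libraries. It was 26 without d2 Nr6a1-/- replicate 2, 41 without d2 Nr6a1-/- replicate 1, 42 without d2.5 Nr6a1-/- replicate 3, 34 without d2 WT replicate 3, 44 without d2.5 WT replicate 1, 30 without d2.5 WT replicate 2, and it rose to 111 without d2 WT replicate 1 and 212 without d2.5 WT replicate 3.

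**Figure D3:**
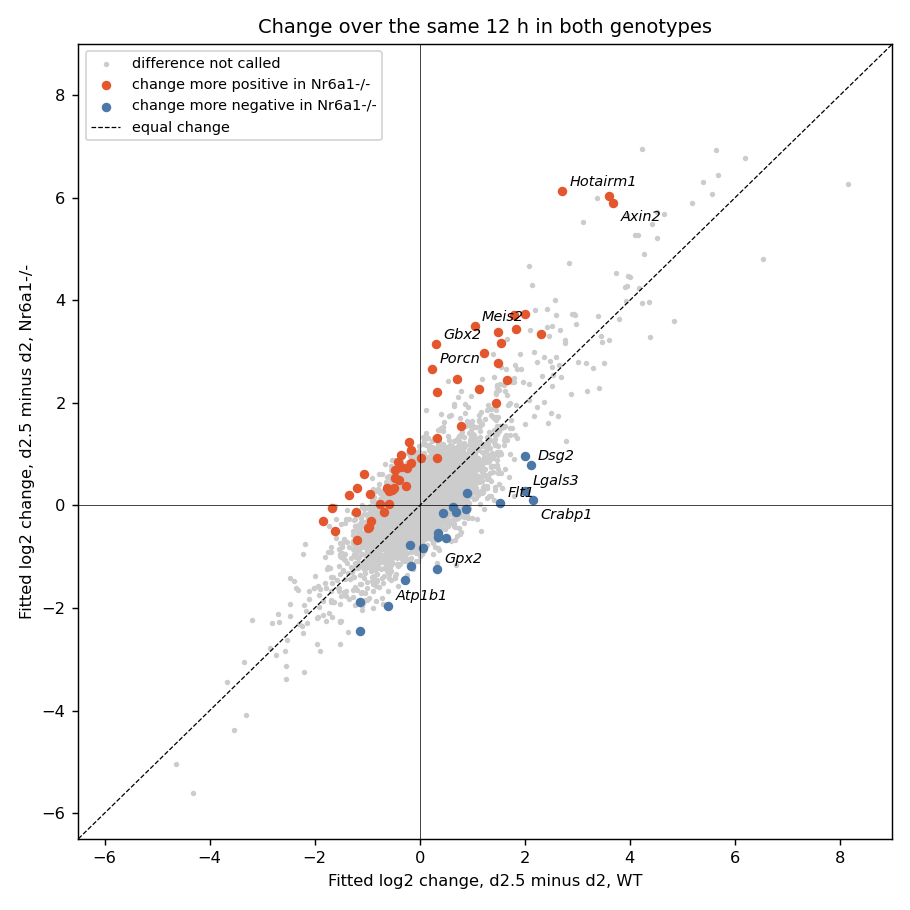
Fitted log2 change from d2 to d2.5 in WT (x axis) and Nr6a1-/- cells (y axis) for the 8842 genes that averaged 10 CPM or more in 1 of the 4 groups, with the genes whose change differed between genotypes at FDR below 0.05 coloured by direction. Most genes lie near the line of equal change (r = 0.81), and Hotairm1, Axin2, Meis2, Gbx2 and Porcn lie above it.

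Among the 53 genes with a more positive change in Nr6a1-/- cells, 18 were called higher in both genotypes, 13 were called higher in Nr6a1-/- cells alone, 3 were higher in Nr6a1-/- and lower in WT cells, 5 were lower in both and 14 were called only as lower in WT. In 34 of them all 3 d2 Nr6a1-/- libraries lay below all 3 d2 WT libraries, and in 42 all 3 d2.5 Nr6a1-/- libraries lay above all 3 of WT. These levels are what the test of the difference was made on, and describe it. The share of all genes tested whose genotypes lay apart in these ways was not counted, so how unusual such separation is cannot be said.

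Axin2 is one of the genes for which both ends differed. It started lower in Nr6a1-/- cells (3.33 ± 0.060 CPM against 10.4, 11.1 and 9.56 CPM in WT) and ended higher (201 ± 5.5 CPM against 156, 112 and 129 CPM), a difference in change of 2.21 on the log2 scale (SE 0.293, FDR = 1.63e-05). For Hotairm1 the difference was 3.42 (FDR = 0.00126), but it was lost without d2 WT replicate 2, the WT library with the highest d2 level (FDR = 0.0719). Axin2 was the sole gene of the Wnt feedback list whose difference was called.

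Gbx2 showed the most significant difference (2.84, SE 0.214, FDR = 2.65e-11). It rose from 15, 14.5 and 17.3 to 148, 140 and 129 CPM in Nr6a1-/- cells and stood at 47.7, 47.5 and 33.8 and then 57.2, 48.4 and 51.7 CPM in WT, where it was not called (FDR = 0.122). Meis2, a Hox cofactor gene, rose from 1.87, 2.60 and 3.01 to 29.7, 26.4 and 31.6 CPM, against 10.8, 7.38 and 8.54 and then 17.0, 13.6 and 25.1 CPM in WT (2.46, FDR = 2.16e-04). Porcn rose in Nr6a1-/- cells and was at 4.58 ± 1.3 and 5.58 ± 1.0 CPM in WT (2.43, FDR = 0.0332), a call lost without 7 of the 12 libraries in turn (d2 Nr6a1-/- replicate 1 or 2, d2.5 Nr6a1-/- replicate 1 or 3, d2 WT replicate 3, d2.5 WT replicate 1 or 2, FDR = 0.0574 to 0.182). Prtg and Ccnd2 rose in both genotypes and by more in Nr6a1-/- cells (differences 1.15 and 1.05).

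In the opposite direction, Crabp1, a cytoplasmic carrier of retinoic acid, rose in WT from 23.0, 26.4 and 20.5 to 109, 102 and 97.9 CPM and was not called in Nr6a1-/- cells, at 19.6, 19.0 and 23.3 and then 25.5, 20.9 and 20.2 CPM (difference -2.06, SE 0.198, FDR = 1.50e-08). Its levels at d2 overlapped between genotypes, and those at d2.5 did not. The antioxidant enzyme gene Gpx2 fell in Nr6a1-/- cells (-1.23) and was not called in WT (difference -1.56, FDR = 0.00564). Car4, a gene of the epiblast list, fell in both and by more in Nr6a1-/- cells (-2.45 against -1.14, FDR of the difference = 3.24e-05). The other genes named in this direction, Lgals3, Flt1, Atp1b1 and Dsg2, differed by -1.72 to -1.33 at FDR = 0.0225 to 0.0258. Each of these 4 calls was lost without single libraries. The call of Flt1 was lost without d2 Nr6a1-/- replicate 2, d2 WT replicate 2 or 3 or d2.5 WT replicate 3 (FDR = 0.0506 to 0.0786). That of Dsg2 was lost without d2 Nr6a1-/- replicate 1, d2.5 Nr6a1-/- replicate 3, d2 WT replicate 3 or d2.5 WT replicate 1 or 2 (FDR = 0.0528 to 0.121). That of Atp1b1 was lost without d2 Nr6a1-/- replicate 2 or 3, d2.5 Nr6a1-/- replicate 1 or 2, d2 WT replicate 3 or d2.5 WT replicate 2 (FDR = 0.0569 to 0.142), and that of Lgals3 without d2 Nr6a1-/- replicate 1 or 3, d2.5 Nr6a1-/- replicate 3, d2 WT replicate 1 or 3 or d2.5 WT replicate 1 or 2 (FDR = 0.0542 to 0.0702).

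**Figure D4:**
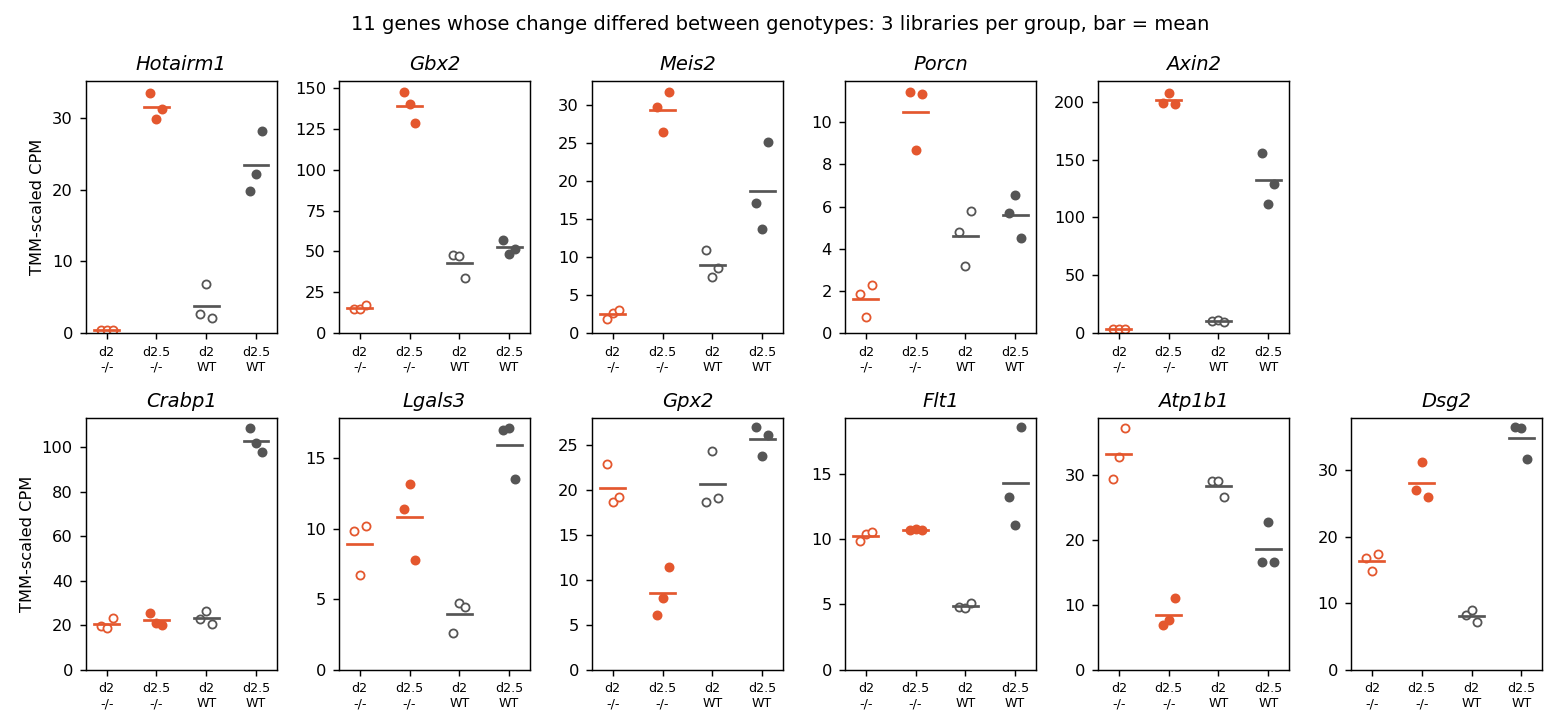
TMM-scaled CPM in each of the 3 libraries per group (points) and the group mean (bars) at d2 (open) and d2.5 (filled) in Nr6a1-/- and WT cells for 11 genes among those with the largest differences in change. The 5 genes of the upper row start lower and end higher in Nr6a1-/- cells on average, and Crabp1 rises in WT but is not called in Nr6a1-/- cells.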

How the data were processed

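RNA of 30 cell libraries was measured, and the 6 Nr6a1-/- libraries at d2 and d2.5 with the 6 WT libraries of the same stages are described. Libraries were primed at the poly(A) tail with an index and a molecular identifier, and STAR was the aligner, with mm10 as the genome, per the labels. The annotation, counting tool, use of strand and collapsing of identifiers are not given in the sources used here. The deposited counts are whole numbers per gene, not normalised and not pooled, from 3′ ends, so levels were not divided by gene length. The authors also deposited tables of CPM, fold changes, p-values and FDR from their edgeR comparisons of genotypes at each stage, which were not used. All columns of the count table matched a label (0 unmatched).

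A gene was kept if 2 libraries of the same group each had over 10 counts and over 2 CPM, 12149 of 54134 rows, holding at least 99.2% of the counts of each of the 6 libraries. Counts were fitted in edgeR 4.0.16 (R 4.3.3) with TMM factors as 1 model of the 10 groups (20 residual degrees of freedom) and tested 2-sided by glmQLFTest. The SE was taken as the log2 change over the root of the F statistic, and TMM-scaled CPM values are printed. Fitted changes of genes with few counts depend on edgeR's prior count, so ratios of pooled counts with exact 95% intervals are given for 1 to 3 counts, and a bound against 3 counts per group for none. Replicates in the 6 Nr6a1-/- pairs had a chi-square per gene of 1.55 to 2.98, and none held the same counts. In the WT pairs of the same stages it was 2.11 to 5.25, highest between d2.5 WT replicates 2 and 3. Positions are from GENCODE M21 (GRCm38, which is mm10).

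The 29 gene lists, the members and the tests were chosen with earlier results of these data known. Named are the 12 largest rises and falls in Nr6a1-/- cells among called genes with at least 10 CPM in 1 stage and separate groups, the 5 largest gains and losses of CPM, the 6 largest differences in change each way, and genes of the lists, some of which are not reported here. The alternatives were RLE factors, no factors, no filter, DESeq2 1.42.0, a fit of the compared libraries only, a replicate block, thinning to 1570714 counts and leaving out each library. The fit was tested on simulated data.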

Additional observations from a re-analysis of the deposited data

Results flagged for a closer look

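The change from d2 to d2.5 differed between genotypes in 74 genes by the test of the difference itself (edgeR, FDR below 0.05). Among the genes named by size and the listed genes, the difference of Nr6a1-/- minus WT on the log2 scale was more positive for Hotairm1 (3.42), Gbx2 (2.84), Meis2 (2.46), Porcn (2.43), Axin2 (2.21), Dusp6 (1.62), Ccnd2 (1.05), Tcf7l2 (0.95) and Acvr2b (0.88). It was more negative for Crabp1 (-2.06), Lgals3 (-1.72), Gpx2 (-1.56), Flt1 (-1.48), Atp1b1 (-1.36), Dsg2 (-1.33), Car4 (-1.31), Nefm (-1.02), Krt8 (-0.95) and Krt18 (-0.89).

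Dusp6, an ERK phosphatase gene and FGF feedback target, fell in WT from 180, 260 and 251 to 74.2, 40.9 and 101 CPM and was not called in Nr6a1-/- cells. The keratin genes Krt8 and Krt18 differed in the opposite direction from Dusp6, with a more negative change in Nr6a1-/- cells. Krt18 fell in Nr6a1-/- cells from 115, 120 and 107 to 77.7, 52.1 and 62.9 CPM. In WT, Krt18 was at 87.2, 83.3 and 88.1 and then 88.4, 91.8 and 89.4 CPM. Krt8 was called higher in WT alone. Of the 19 genes, 7 kept the call in the same direction under each of the 19 alternatives: Gbx2, Meis2, Axin2, Ccnd2, Crabp1, Car4 and Krt18. The other 12 lost it under 1 or more. Without single libraries, the call of Dusp6 was lost without d2 Nr6a1-/- replicate 2, d2 WT replicate 3 or d2.5 WT replicate 2 (FDR = 0.0529 to 0.0702), and that of Krt8 without d2 Nr6a1-/- replicate 2, d2.5 Nr6a1-/- replicate 3, d2 WT replicate 1 or 2 or d2.5 WT replicate 1 or 2 (FDR = 0.0505 to 0.133). Acvr2b was lost without d2 Nr6a1-/- replicate 2, d2.5 Nr6a1-/- replicate 1 or 3, d2 WT replicate 2 or 3 or d2.5 WT replicate 2 (FDR = 0.0519 to 0.0935), Tcf7l2 without d2 Nr6a1-/- replicate 2, d2 WT replicate 3 or d2.5 WT replicate 2 (FDR = 0.0823 to 0.121) and Nefm without d2 or d2.5 Nr6a1-/- replicate 1, d2 Nr6a1-/- replicate 2, d2.5 Nr6a1-/- replicate 3 or replicate 1 or 2 of either WT stage (FDR = 0.0601 to 0.108). The part of culture differences between the clone and the WT line in these values was not tested.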

How the results depend on the processing

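In Nr6a1-/- cells the count of called genes was 2284 to 3424 over the 7 alternatives that kept all libraries and 2255 to 2524 without 1 of its 6 libraries, beside 2926. In WT it was 2527 to 3143, and 2349 to 2664 without 1 library, beside 3086. Without normalisation factors the split in WT was 2057 higher and 1061 lower, beside 1615 and 1471. In Nr6a1-/- cells it was 1795 and 1127, beside 1568 and 1358. With RLE factors the split in Nr6a1-/- cells was 1478 higher and 1515 lower, and with DESeq2 1223 and 1267. In WT it was 1518 and 1561 with RLE factors and 1286 and 1317 with DESeq2. Which direction held more calls thus depended on the factors and the test used.

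The count of genes whose change differed between genotypes (74, of which 53 were more positive and 21 more negative) was less stable. It was 317 (275 and 42) with no filter on low counts and 121 (85 and 36) when only the compared libraries were fitted, and 55 to 82 with RLE factors, no factors, DESeq2 or thinned libraries. Without 1 library it ranged from 26 to 212, with 14 to 165 more positive and 12 to 47 more negative. The cause was not tested. Fitting the replicate number as a block gave 117 genes (90 and 27). Same-numbered libraries had correlations of deviations from their group means between -0.0393 and 0.0371 over 6 pairs. With 3 libraries per group and counting error in each, such values cannot settle whether equal numbers mark paired samples. The labels do not say so either. The block moved no other count of calls over all genes by more than 1.5 times.

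Of 193 named or listed genes called in Nr6a1-/- cells, 160 kept the call under all 13 alternatives, 33 lost it under at least 1 and 0 reversed, and 46 uncalled genes passed under at least 1. None of the 24 largest rises and falls lost its call. Of 58 counts of list members called, 12 moved by more than 1.5 times under 1 or more alternatives. Depth limits the genes with few counts: untested list members had at most 32 counts summed over the 3 libraries of either stage.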
